A study of Mus musculus with 8 samples.

Results

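Transcripts of 7 helix-loop-helix transcription factors, *Msc*, *Bhlhe40*, *Id2*, *Id3*, *Tcf3*, *Tcf4* and *Tcf12*, were followed in CD4+ conventional T (Tconv) cells sorted from melanomas into CCR8+ and CCR8- populations. The genes were taken by symbol, and all 7 were found among the 11233 genes of the expression table. They were selected with results of this same CCR8+ to CCR8- comparison in view, so their differences are given as descriptions, without a test.

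B16-F10 cells, a mouse melanoma line, were implanted subcutaneously in mice of the Foxp3 EGFP-DTR genotype, 8 to 14 weeks old. In these animals a fusion of green fluorescent protein and the human diphtheria toxin receptor is made from the *Foxp3* locus, so that diphtheria toxin (DTx) removes Foxp3+ regulatory T (Treg) cells. All animals of both groups carried this allele and received 4 injections of 1 μg DTx each between days 7 and 13. Tconv cells lacking the fluorescent protein were sorted on day 16. Bulk RNA-Seq gave 4 libraries of CCR8+ and 4 of CCR8- cells, numbered 1 to 4 in each population, and no untreated group was used here. The authors call the libraries biological replicates isolated on a single day, and the labels do not say whether a library came from 1 animal or whether a shared number marks shared animals. The spread between libraries is therefore the only error that could be measured.

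Basic helix-loop-helix (bHLH) factors bind DNA as dimers at E-boxes, short sites of the form CANNTG. The E proteins E2A, E2-2 and HEB, encoded by *Tcf3*, *Tcf4* and *Tcf12*, are the broadly expressed partners in these dimers and direct many steps of lymphocyte development. The ID proteins, among them the products of *Id2* and *Id3*, have the dimerization domain but no DNA-binding region, and they hold E proteins in inactive pairs. Musculin, encoded by *Msc*, is a bHLH repressor known in muscle and in lymphocytes. *Bhlhe40* encodes a bHLH factor of the DEC group that also acts in the circadian clock and controls cytokine genes in T cells.

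All 8 T helper markers were read in each of the 8 libraries, with sums of 85537 to 119189 normalized counts in CCR8- cells and 84576 to 114086 in CCR8+ cells. The B cell and plasma cell markers summed to 29.4 to 568 in CCR8- cells and 26.0 to 447 in CCR8+ cells, with *Ms4a1* at 0 in all 8 libraries. Macrophage and monocyte markers summed to 35.5 to 85936 in CCR8- cells and 3249 to 28148 in CCR8+ cells. Melanoma markers summed to 105 to 17389 and 232 to 21841. The libraries were thus not free of such transcripts, and their part in the values of the 7 genes was not tested. Libraries held 12067780 to 17802628 reads, and 3 reads were worth 2.21 to 3.42 normalized counts, the limit under which a value was not told apart from 0. Intervals of this kind cover counting error only, because the reads carry no molecular identifiers. CCR8- replicate 1 stood apart, with 472 genes at 0 there and at 50 normalized counts or more in every other library. The corresponding number was 107 in CCR8+ replicate 1, 58 in CCR8+ replicate 3 and at most 3 in the rest. *Ccr8*, the gene of the sorting marker, had 2039, 1293, 6214 and 4637 normalized counts in CCR8- replicates 1 to 4 and 7975, 6970, 42508 and 22965 in CCR8+ replicates 1 to 4. The sort thus separated the populations in *Ccr8* transcript, with no overlap and with reads in CCR8- cells too.

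The *Id2* and *Id3* promoters are shown because these genes encode the inhibitors of E-box binding and were far apart in transcript level. The sequences are the 250 bases before the start site in RefSeq on GRCm38.p6, on the strand of the gene, at chr12:25096093-25096342 (minus strand) for *Id2* and chr4:136143572-136143821 (plus strand) for *Id3*. Both windows lie inside the gene spans given below for *Id2* and *Id3*, so annotated transcripts of both genes also start further upstream. Capitals mark CANNTG, which reads the same on both strands.
Id2: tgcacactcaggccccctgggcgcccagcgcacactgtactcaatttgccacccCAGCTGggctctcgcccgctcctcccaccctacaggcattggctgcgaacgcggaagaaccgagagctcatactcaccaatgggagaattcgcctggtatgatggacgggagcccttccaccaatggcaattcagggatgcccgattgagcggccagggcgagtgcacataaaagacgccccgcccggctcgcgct
Id3: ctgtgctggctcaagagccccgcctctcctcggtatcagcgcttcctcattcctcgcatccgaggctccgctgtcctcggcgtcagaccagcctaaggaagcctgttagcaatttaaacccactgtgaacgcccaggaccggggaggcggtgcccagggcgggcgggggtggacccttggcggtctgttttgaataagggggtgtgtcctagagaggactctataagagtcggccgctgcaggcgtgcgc
The *Id2* window held 1 E-box, CAGCTG, 196 bases before the start, and the *Id3* window held none. CANNTG was present in 66.2% of 32851 promoter windows of this length, and CAGCTG in 13%. The *Tcf3* window had 1 CANNTG match, 54 bases before the start. RefSeq windows were matched for 4 of the 7 genes, namely *Id2*, *Id3*, *Tcf3* and *Tcf12*. A match to these letters describes the sequence and is not evidence of binding.

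*Msc* reads were found in CCR8+ libraries and in no CCR8- library. *Msc* (ENSMUSG00000025930, GRCm38 chr1:14753346-14755992, minus strand) had 131.9, 15.95, 298.8 and 18.28 normalized counts in CCR8+ replicates 1 to 4 and 0 in each of the 4 CCR8- libraries. Replicates 1 and 3 were high, replicates 2 and 4 were low, and all 4 lay above the CCR8- cells. These values rest on 122, 19, 262 and 21 reads, so that 4 of 8 libraries carried all 424 *Msc* reads. Replicates 1 and 3 together held 90.6% of them. Replicates 1 and 3 were also the CCR8+ libraries with fewer genes read, 9544 and 9701 against 10707 and 10691. CCR8- replicate 1, where *Msc* was at 0, had 8569 genes read. How far missing transcripts in these libraries shaped the *Msc* values was not tested. The CCR8+ mean was 116 ± 133 normalized counts (SD, n = 4), at least 34.1-fold higher than the highest value that 3 reads would have had in a CCR8- library. By the same limit, the lowest CCR8+ library was at least 4.68-fold higher. The highest CCR8+ library exceeded the lowest by 18.7-fold, so the level within the CCR8+ population was poorly fixed by 4 libraries. In bulk samples, fewer cells that express a gene and less RNA per cell cannot be told apart, and this holds for all members.

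A pattern of 0 in all CCR8- libraries with more than 3 reads in all CCR8+ libraries was met by 2 genes of the table, *Msc* and *E230029C05Rik*. The second gene, named here after its values were seen, had 27.0, 30.2, 19.4 and 34.8 normalized counts in CCR8+ replicates 1 to 4. The opposite pattern was met by 3 genes. By a looser pattern, 93 genes were at 0 in all CCR8- libraries and read in at least 1 CCR8+ library, and 84 the other way round. The pattern restates the values of *Msc*, so nothing about *Msc* is read from these counts. Of the exonic bases of *Msc*, 539 of 2546 overlap the antisense gene *Gm9947*, and the use of strand in counting is not given in the sources used here, so reads of this stretch could belong to either gene.

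**Figure D1:**
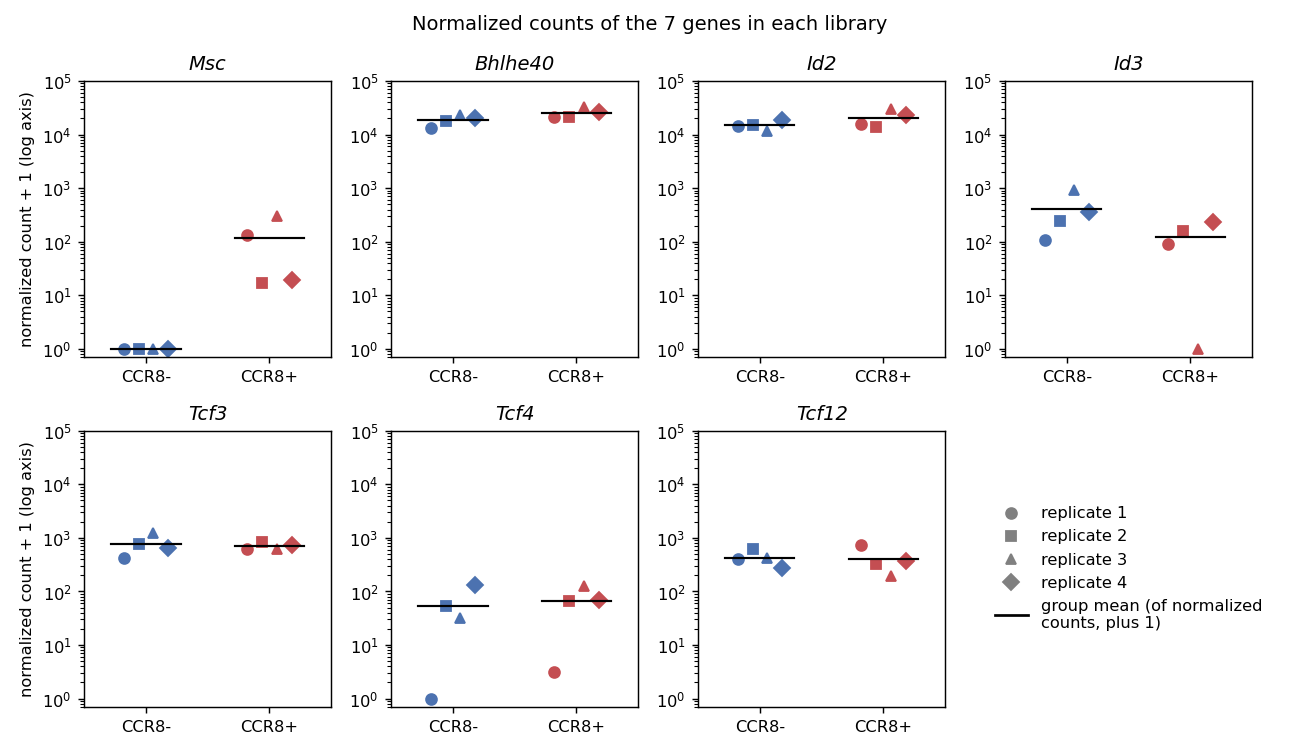
Normalized count plus 1 (log axis) of each gene in the 4 CCR8- and 4 CCR8+ libraries, with the symbol marking the replicate number and the line the group mean. *Msc* was at 0 in all CCR8- libraries and between 15.95 and 298.8 in CCR8+ libraries, while the populations overlapped for the other 6 genes.

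Markers of other cells were compared with *Msc* because tumor sorts can carry other RNA. The summed macrophage and monocyte markers came to 35.5, 4374, 1486 and 85936 normalized counts in the CCR8- libraries, in the order of their numbers, and to 28148, 18385, 3249 and 26362 in the CCR8+ libraries. The 7 melanoma markers summed to 105, 4413, 5574 and 17389 in CCR8- cells and to 308, 5177, 232 and 21841 in CCR8+ cells. *Msc* was at 0 in CCR8- replicate 4, where the macrophage sum was highest, and it was highest in CCR8+ replicate 3, where the macrophage and melanoma sums were the lowest of the CCR8+ cells. CCR8+ replicate 1, with the next highest *Msc* value, had the highest macrophage sum of the CCR8+ cells. The part of macrophage or melanoma RNA in the *Msc* values was not tested. Of 5 Treg markers 4 were analysed here, and they summed to 10294 to 13070 in CCR8- cells and 19283 to 55496 in CCR8+ cells, with the highest value again in replicate 3. The 4 were *Ikzf2*, *Lrrc32*, *Il2ra* and *Ctla4*. Their sum was thus higher in CCR8+ cells, as was *Msc*. The paper reports more *Il2ra* transcript in CCR8+ than in CCR8- Tconv cells, so the sum is not particular to Treg cells. The part of Treg RNA in the *Msc* pattern was not tested. *Foxp3* was not analysed here.

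**Figure D2:**
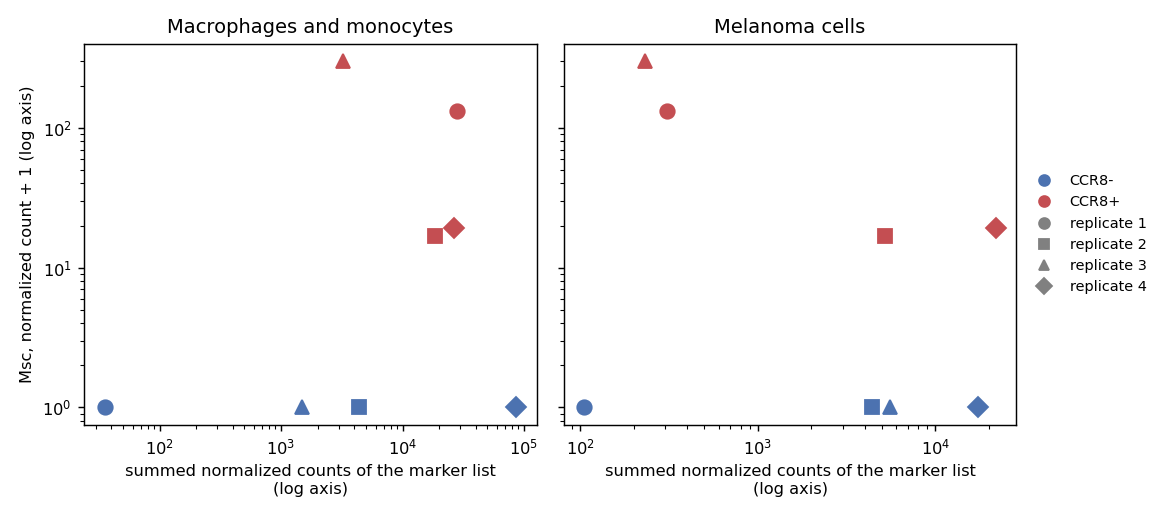
*Msc* normalized count plus 1 (log axis) against the summed normalized counts of macrophage and monocyte markers (left) and melanoma markers (right, log axes) in each library. The CCR8- library with a macrophage sum of 85936 had no *Msc* read, the CCR8+ library with a macrophage sum of 28148 had 131.9 normalized counts of *Msc*, and the CCR8+ library with 298.8 normalized counts of *Msc* had a melanoma sum of 232.

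*Bhlhe40* was among the most abundant transcripts in both populations, above 99.5% of tested genes in mean normalized count. *Bhlhe40* (ENSMUSG00000030103, GRCm38 chr6:108660629-108666925, plus strand) had 13312, 17986, 23253 and 20335 normalized counts in CCR8- replicates 1 to 4 and 20941, 21344, 32826 and 26700 in CCR8+ replicates 1 to 4. CCR8- replicate 1 was the lowest and CCR8+ replicate 3 the highest, and the ranges overlapped, because CCR8- replicate 3 exceeded CCR8+ replicates 1 and 2. The means were 18722 ± 4201 and 25453 ± 5573 (SD, n = 4 each), a ratio of 1.36, and the log2 difference of CCR8+ minus CCR8- was 0.45 (SE 0.27). Its SD within populations on the log2 scale was 0.33, with a smaller SD in 9.80% of tested genes. That share is over genes of all levels, and low genes with libraries at 0 have larger SDs. It therefore does not set *Bhlhe40* apart from other abundant genes. The CCR8+ value was higher in all 4 same-numbered pairs, by 1.57-, 1.19-, 1.41- and 1.31-fold. *Bhlhe40* shares 118 of 4705 exonic bases with the antisense gene *0610040F04Rik*.

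*Id2*, the most abundant of the 7 per kilobase (kb), was also high in both populations. *Id2* (ENSMUSG00000020644, GRCm38 chr12:25093799-25097140, minus strand) had 14354, 15219, 11617 and 18907 normalized counts in CCR8- replicates 1 to 4 and 15835, 14137, 30114 and 22921 in CCR8+ replicates 1 to 4. CCR8+ replicates 3 and 4 stood above all CCR8- libraries, and CCR8+ replicates 1 and 2 lay among them. The means were 15024 ± 3010 and 20752 ± 7310 (SD, n = 4 each), a ratio of 1.38, with a log2 difference of 0.42 (SE 0.29). Within same-numbered pairs the ratios of CCR8+ to CCR8- were 1.10, 0.929, 2.59 and 1.21. Without CCR8+ replicate 3 the log2 difference was 0.22.

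*Id3* differed in the other direction and rested in large part on 1 library. *Id3* (ENSMUSG00000007872, GRCm38 chr4:136143497-136145755, plus strand) had 105.4, 244.8, 919.3 and 362.3 normalized counts in CCR8- replicates 1 to 4 and 88.6, 158.7, 0 and 233.3 in CCR8+ replicates 1 to 4. CCR8- replicate 3 was far above the rest, CCR8+ replicate 3 had no *Id3* read, and the populations overlapped. The means were 408 ± 357 and 120 ± 99.5 (SD, n = 4 each), 3.40-fold lower in CCR8+ cells. The log2 difference, taken on log2(normalized count + 1), was −2.84 (SE 1.59). On that scale the library at 0 counts for more than in the ratio of means. Without CCR8+ replicate 3 the log2 difference was −1.03. *Id3* was 1 of the 58 genes at 0 in that library alone, and how far loss of transcripts in that library contributed was not tested. CCR8+ values were lower in all 4 same-numbered pairs, with ratios of 0.841, 0.648 and 0.644 in the 3 pairs read in both libraries. When CCR8- replicate 1 and CCR8+ replicate 3 were both left out, an alternative chosen after the data were seen, the 3 CCR8- values lay above the 3 CCR8+ values and the log2 difference was −1.54. Over all tested genes, 6.35% were lower without overlap in that smaller comparison.

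*Tcf3* was the main E protein transcript and its means were close in the 2 populations. *Tcf3* (ENSMUSG00000020167, GRCm38 chr10:80409514-80433647, minus strand) had 428.5, 783.5, 1223.7 and 648.5 normalized counts in CCR8- replicates 1 to 4 and 606.3, 835.5, 615.8 and 741.7 in CCR8+ replicates 1 to 4. The CCR8+ values lay inside the wider CCR8- range. The means were 771 ± 335 and 700 ± 109 (SD, n = 4 each), with a log2 difference of −0.05 (SE 0.35). It was 0.20 when CCR8- replicate 3 was left out.

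*Tcf12* varied within each population by more than between them. *Tcf12* (ENSMUSG00000032228, GRCm38 chr9:71842688-72111871, minus strand) had 397.0, 624.8, 417.5 and 269.2 normalized counts in CCR8- replicates 1 to 4 and 747.9, 319.1, 193.9 and 376.9 in CCR8+ replicates 1 to 4. CCR8+ cells held both the highest and the lowest value. The means were 427 ± 147 and 409 ± 238 (SD, n = 4 each), the log2 difference was −0.17 (SE 0.49), and 2 of 4 pairs were higher in CCR8+ cells. Without CCR8+ replicate 3 the difference was 0.13.

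*Tcf4* was barely read. *Tcf4* (ENSMUSG00000053477, GRCm38 chr18:69343356-69689079, plus strand) had 0, 52.9, 30.7 and 129.5 normalized counts in CCR8- replicates 1 to 4 and 2.16, 65.5, 123.2 and 67.0 in CCR8+ replicates 1 to 4. Replicate 1 of both populations was at or under 3 reads, with 2 reads in CCR8+ cells, and 6 of 8 libraries were above that limit. The means were 53.3 ± 55.2 and 64.5 ± 49.4 (SD, n = 4 each). The log2 difference was 0.75 (SE 1.87), and it was −0.73 without CCR8- replicate 1. The direction of *Tcf4* thus turned on 1 library. Among 8 markers of plasmacytoid dendritic cells, which use E2-2, 4 were analysed here, without *Siglech* and *Spib*. These were *Ccr9*, *Runx2*, *Irf8* and *Ly6d*, with 2 to 4 of them above 3 reads in each library. Those 4 summed to 1706 to 2501 normalized counts in CCR8- cells and 1207 to 2524 in CCR8+ cells. *Ccr9* was at 0 in all CCR8+ libraries. The paper counts *Runx2* among Treg transcripts, so the sum is not particular to plasmacytoid dendritic cells. Their part in the *Tcf4* values was not tested.

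**Figure D3:**
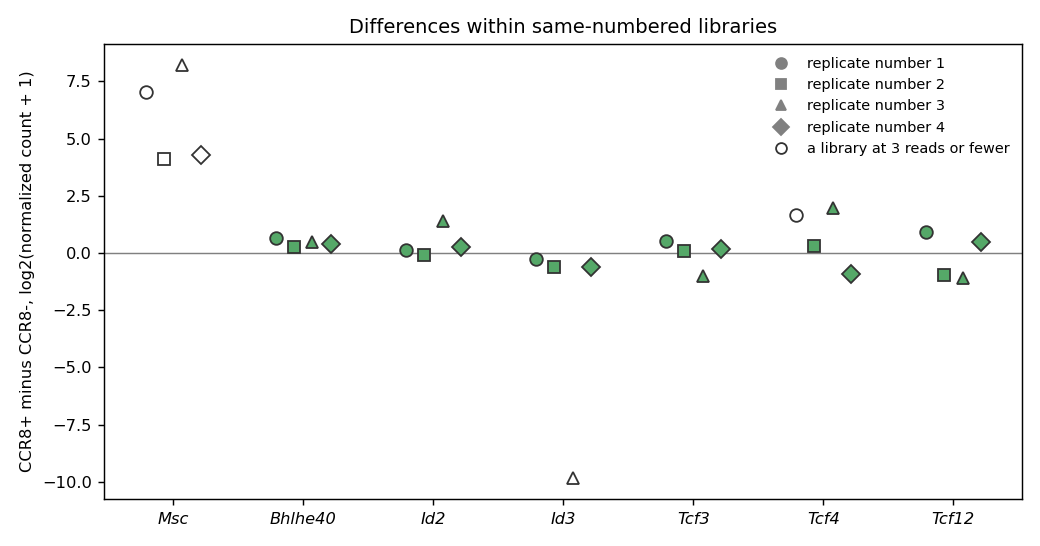
Difference of CCR8+ minus CCR8- in log2(normalized count + 1) for each gene within libraries that carry the same replicate number, with open symbols where a library had 3 reads or fewer. *Bhlhe40* was above 0 in 4 of 4 pairs, *Id3* was below 0 in 4 of 4, and *Tcf12* was split between 2 above and 2 below.

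Of the 7 genes, 4 had the higher mean on the log2(normalized count + 1) scale in CCR8+ cells and 3 the lower. Their median log2 difference was 0.42, beside 0.04 over the 11032 genes tested. The populations did not overlap for 1 of the 7, *Msc*, which was higher in CCR8+ cells. Over all tested genes, 2.37% were higher in CCR8+ cells without overlap and 2.03% were lower. Calls required a fold change over 3 with an adjusted p under 0.05, and limma called none of the 7, and its background was 0% of tested genes. The count of 0 over all genes came with 562 genes at an unadjusted limma p under 0.05. That is close to the number that chance alone gives at this limit over 11032 genes. edgeR on the reads recovered from the normalized values called 0 genes as well. DESeq2 on those reads called 23 genes, 0.212% of 10865, and *Msc* was the 1 member among them. Since the members were chosen from this comparison, nothing is read from these counts.

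Levels of the 7 genes were compared per kb of exon, using the union of annotated exons. The order by mean level over all 8 libraries was *Id2* at 7337 ± 2466 normalized counts per kb, *Bhlhe40* at 4694 ± 1236, *Tcf3* at 182 ± 57.9, *Id3* at 147 ± 160, *Tcf12* at 26.9 ± 11.8, *Msc* at 22.8 ± 42.1 and *Tcf4* at 2.15 ± 1.79 (SD, n = 8). *Bhlhe40* and *Tcf3*, which were 25.8-fold apart, were the neighbours whose ranges did not overlap. All other neighbours overlapped, although *Id2* exceeded *Bhlhe40* in 7 of 8 libraries and *Id3* exceeded *Tcf12* in 7 of 8. *Msc* exceeded *Tcf4* in 4 of 8 libraries. The order was the same when the longest coding transcript gave the length.

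ID transcripts exceeded E protein transcripts in every library. The ratio of *Id2* plus *Id3* to *Tcf3* plus *Tcf4* plus *Tcf12*, each per kb, was 45.2, 27.0, 15.9 and 43.6 in CCR8- replicates 1 to 4 and 33.0, 25.6, 72.9 and 45.3 in CCR8+ replicates 1 to 4. The ranges overlapped, and the highest ratio, in CCR8+ replicate 3, was 4.57-fold the lowest, in CCR8- replicate 3. The means were 32.9 ± 13.98 and 44.2 ± 20.8 (SD, n = 4 each), and 2 of 4 pairs were higher in CCR8+ cells. The log2 ratio differed by 0.43 between populations. This value was 0.12 without CCR8- replicate 3 and 0.15 without CCR8+ replicate 3, so those libraries held most of the difference.

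By the union of annotated exons, *Tcf3* made up 75.7% to 91.5% of the E protein transcripts per kb in the 8 libraries. This share depends on the length used, which for *Tcf12* is 15.5 kb as an exon union and 6.30 kb as the longest coding transcript. Without division by length, *Tcf12* exceeded *Tcf3* in CCR8+ replicate 1 (747.9 against 606.3) and was below it in every other library. *Id3* made up 0.990% to 9.72% of the ID transcripts in CCR8- cells and 0% to 1.51% in CCR8+ cells. *Id2* therefore exceeded *Id3* by 9.28-fold or more in CCR8- libraries and by 65.4-fold or more in the 3 CCR8+ libraries with *Id3* reads.

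**Figure D4:**
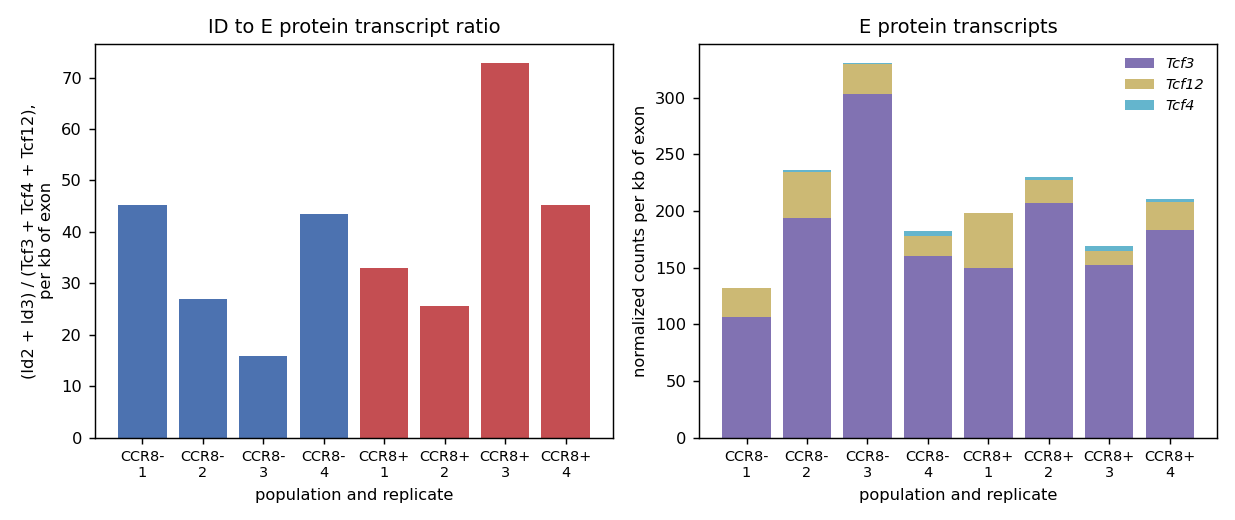
Left, ratio of ID to E protein transcripts per kb of exon in each library, which ran from 15.9 to 72.9. Right, normalized counts per kb of *Tcf3*, *Tcf12* and *Tcf4* stacked in each library, with *Tcf3* at 75.7% or more in all 8 by exon union length.

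Other genes of the same network were taken from lists of bHLH relatives, cofactors and reported targets, which were drawn up with earlier results of these data known. They named 147 genes, of which 110 were in the table and 109 were tested. limma called 0 of the 109, and DESeq2 on recovered reads called 2. The populations did not overlap for 11 of them (10.1%), 4 higher and 7 lower in CCR8+ cells, beside 2.37% higher and 2.03% lower over all tested genes. Because the lists were drawn up with these data known, nothing particular to them is read from such counts. The median log2 difference over the 109 was 0.03. With CCR8- replicate 1 and CCR8+ replicate 3 left out, which can only add genes without overlap, the counts came to 6 higher and 14 lower, beside 5.57% and 6.35% of all tested genes. The adjusted p of the 11 genes ran from 0.788 to 0.838 (limma).

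Genes tied to *Bhlhe40* and Musculin in T cells included the type 2 cytokine genes *Il5* and *Il13*, which DESeq2 called in both lists. *Il5*, which encodes the cytokine that drives eosinophil production, had 2694, 2247, 5360 and 1525 normalized counts in CCR8- replicates 1 to 4 and 13549, 12437, 43276 and 9430 in CCR8+ replicates 1 to 4. *Il13*, encoding a cytokine of allergic inflammation, had 54.2, 61.0, 70.2 and 27.3 in CCR8- cells and 659.3, 424.9, 835.9 and 340.4 in CCR8+ cells. Both were higher in every CCR8+ library, with log2 differences of 2.61 (SE 0.48) for *Il5* and 3.38 (SE 0.66) for *Il13*. *Batf*, an AP-1 factor of effector T cells, was higher without overlap too, at 5560 to 7281 normalized counts against 7561 to 15908. *Il4* overlapped, at 1384 to 3885 against 2115 to 13172, as did *Gata3*, the factor that directs type 2 helper cells, at 5057 to 10463 against 5344 to 14432. Of the 9 tested genes of the Musculin list 3 were higher without overlap and none lower, and of the 16 tested genes of the *Bhlhe40* list 2 were higher and none lower, beside 2.37% higher and 2.03% lower over all tested genes. *Ifng* and *Gzmb*, both in the *Bhlhe40* list, overlapped widely.

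Reported E protein targets in lymphocytes, also listed with these data known, had a median log2 difference below 0, from which nothing is read. Of 27 tested, 17 were below 0 and 10 above, with a median of −0.56 beside 0.04 over all tested genes, and limma and DESeq2 called none. Over all tested genes 52.4% were above 0. The 4 targets without overlap were lower in CCR8+ cells, beside 2.03% of all tested genes lower without overlap. *Cxcr4*, a chemokine receptor, had 475.6 to 848.1 normalized counts in CCR8- cells and 218.3 to 289.7 in CCR8+ cells, a log2 difference of −1.30 (SE 0.36). *Lef1*, a factor of the Wnt pathway found in naive and memory-like T cells, had 1493 to 2179 against 520.04 to 1357. *Satb1*, a chromatin organizer in T cells, had 3599 to 6477 against 409.4 to 3098, and *Ikzf1*, which encodes Ikaros, had 944 to 3238 against 460 to 920. *Cd4* and *Cd3e*, which are in the same list, overlapped, and their log2 differences were −0.0028 and 0.11.

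Among genes tied to the balance of *Id2* and *Id3* in T cells, 1 of 15 tested was without overlap, lower in CCR8+ cells as 2.03% of all tested genes were. This was *Itgae*, which encodes the CD103 integrin of tissue-resident T cells, with 1178, 579.9, 510.5 and 251.0 normalized counts in CCR8- replicates 1 to 4 and 70.3, 175.5, 0 and 19.2 in CCR8+ replicates 1 to 4. All CCR8+ libraries were below all CCR8- libraries, and the means were 630 ± 392 and 66.2 ± 78.7 (SD, n = 4 each). *Il7r*, in both this list and the target list, overlapped at 3722 to 5127 against 1789 to 5227.

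E protein cofactors had 2 of 16 tested genes lower without overlap and none higher, beside 2.03% and 2.37% of all tested genes. These were *Crebbp*, a histone acetyltransferase, at 422.8 to 547.4 normalized counts against 98.4 to 383.0, and *Huwe1*, a ubiquitin ligase, at 488.8 to 844.7 against 314.0 to 428.8. The other 14 overlapped.

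The wider bHLH family held 1 gene without overlap, higher in CCR8+ cells as 2.37% of all tested genes were. *Hif1a*, which encodes the hypoxia-inducible factor subunit, had 4220, 7153, 6595 and 5640 normalized counts in CCR8- replicates 1 to 4 and 9535, 7735, 12746 and 7407 in CCR8+ replicates 1 to 4, a log2 difference of 0.66 (SE 0.25). It was 1 of 14 tested bHLH-PAS and bHLH-zipper genes. Of 11 tested hairy, DEC and circadian genes none was without overlap, and 9 had a log2 difference below 0 with a median of −0.88. Over all tested genes 52.4% were above 0, with a median of 0.04. Nothing is read from the signs in this list either. *Arntl*, the clock partner of CLOCK, had a difference of −0.76 (SE 0.44), while *Nfil3* had 0.80 (SE 0.31). None of 10 MYC, MAX and MXD genes was without overlap, although *Myc* was higher in CCR8+ cells in 4 of 4 pairs with a difference of 1.31 (SE 0.57). The 4 tested ID and ID-related genes overlapped, with a median difference of 0.81 beside 0.04 over all tested genes. They include *Usp1*, *Wdr48* and *Hhex*, which are not ID genes. *Usp1* differed by 0.89 (SE 0.81), with 54.2 normalized counts in CCR8- replicate 1 against 662 to 1169 in the other CCR8- libraries. *Hhex* differed by 0.73 (SE 0.84), with 646.6 in CCR8+ replicate 3 against 92.9 to 175.8 in the other CCR8+ libraries. *Wdr48* differed by 0.15 (SE 0.35). None of 17 tissue-restricted bHLH genes was analysed here.

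**Figure D5:**
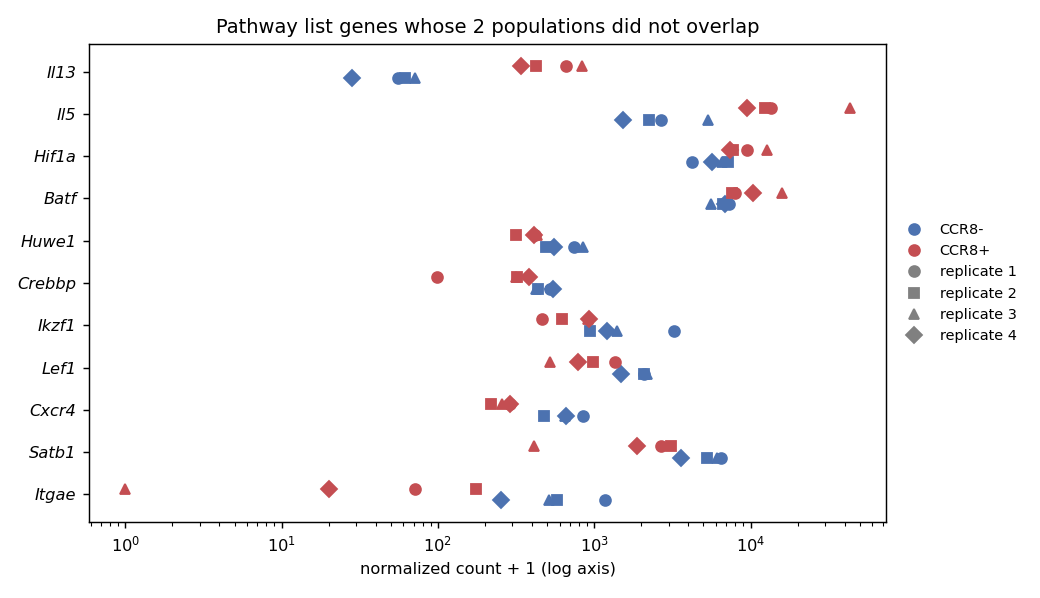
Normalized count plus 1 (log axis) of the 11 network genes whose populations did not overlap, with each library as a point and the symbol giving its replicate number. *Il13*, *Il5*, *Hif1a* and *Batf* lay higher in CCR8+ cells, and *Itgae* was at 0 in CCR8+ replicate 3.

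The genes whose profile over the 8 libraries was most like that of each member were found from the root mean square difference of centred log2(normalized count + 1) values. *Msc* was nearest to *Acaa1b*, with a difference of 1.002, then *Adam33* at 1.09 and *Rbm44* at 1.52. *Bhlhe40* was nearest to *Ik*, *Egln2* and *Gabarap* (0.106, 0.127 and 0.134), and *Id2* to *Tmem147*, *Thoc7* and *Ssr4* (0.126, 0.162 and 0.170). *Id3* was nearest to *Lpar6*, *Oas1c* and *Dhx38* (0.652, 0.691 and 0.726). Among the E proteins, *Tcf3* was nearest to *Rngtt*, *Letm1* and *Aes* (0.135, 0.136 and 0.166), *Tcf12* was near to *Sytl1* and *Nbn* (0.206 and 0.249), and *Tcf4* was nearest to *Nedd4l*, *Zfp428* and *Tmx4* (0.576, 0.613 and 0.622). Members with a small spread could come close to a neighbour more easily than *Msc*, *Id3* and *Tcf4*, which had libraries at or near 0. The gene nearest to *Msc*, *Acaa1b*, had 137.3, 70.5, 500.7 and 27.9 normalized counts in CCR8+ replicates 1 to 4 and 0.88 to 9.56 in CCR8- cells, so that it too was highest in CCR8+ replicates 3 and 1.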

How the data were processed

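CCR8+ and CCR8- Tconv cells (4 libraries each) were profiled by bulk RNA-Seq from a low-input SMARTer kit. According to the methods, the authors trimmed reads, aligned them to NCBIM37 with hisat2, kept unique reads and scaled them to library size. The submitters' processing notes also name FastQC, cutadapt, HTSeq, DESeq2 and mm9. Versions of these tools and strandedness of counting are not given in the sources used here. The authors deposited a signal for each gene, which is its read count divided by 1 factor per library (totals 11469410 to 14394101). They are called normalized counts here. Whole reads were recovered for all values of the 8 libraries (tolerance 0.001 reads). Of 11233 genes, 20 were at 0 throughout and 1 name was listed more than once. Columns of per-sample values left unused numbered 0.

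Groups and numbers came from the labels. The members and all lists were chosen with earlier results of these data known. The study's own test, DESeq2, takes counts, and the deposited values are normalized, so DESeq2 was kept as an alternative on recovered reads. The main test was limma 3.58.1 (R 4.3.3, intensity trend, Benjamini-Hochberg) on log2(normalized count + 1). It covered 11032 genes with a mean of at least 10, called at adjusted p under 0.05 and fold over 3. Fold changes of low genes on the log2(normalized count + 1) scale can lie nearer to 0 or further from 0 than those from reads. *Id3*, with 1 library at 0, had −2.84 on this scale and −1.76 with DESeq2, while *Msc* had 5.91 and 9.42. edgeR 4.0.16 and DESeq2 1.42.0 on recovered reads, other scalings, pseudocounts, filters, the replicate block and leaving out each library were alternatives. Named genes were the 7 members, *Ccr8*, network genes called or without overlap plus up to 3 per list with the highest mean, and the 3 genes nearest to each member. Some of them are not reported here. Gene positions and exon lengths are GENCODE M21 on GRCm38, a later build than that of the alignment, and only locate genes. Promoters are from RefSeq (GRCm38.p6).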

Additional observations from a re-analysis of the deposited data

Results flagged for a closer look

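In 6 of 88 groups checked, over 44 quantities, 1 library lay far from the other 3 of its population by Dixon's gap ratio on the log2 scale. Chance flags about 1 in 20 groups. Among the members this was *Tcf4* in CCR8+ replicate 1 (ratio 0.830), at 2.16 normalized counts against 65.5 to 123.2. In the same library *Crebbp* (0.861) had 98.4 against 317.0 to 383.0. In CCR8- replicate 1, *Epas1* (0.868) was high at 1610 against 443 to 526 and *Nfil3* (0.955) was low at 1417 against 2397 to 2457. *Huwe1* in CCR8+ replicate 2 (0.883) had 314 against 413 to 429. *Lef1* in CCR8- replicate 4 (0.886) had 1493 against 2087 to 2179. *Msc* and *Id3* were not among the 6.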

How the results depend on the processing

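Numbers of genes called depended on the test. limma called 0 genes, 2 without the intensity trend and 1 with the replicate block, and edgeR called 0. DESeq2 called 23, and 81 with the replicate block. Of the network genes limma called 0, 1 with the block, DESeq2 2, and 6 with the block. The labels do not say whether equal numbers mark pairs, so the main fit did not pair them. Deviations within same-numbered libraries correlated by 0.0682 to 0.217, against −0.171 to 0.101 otherwise. Since 7 of 8 libraries were closest to their own number, pairing was not refuted, and the unpaired SEs would ignore it. With the replicate block the SE of *Bhlhe40* was 0.19 in place of 0.27, and that of *Id3* was 1.72 in place of 1.59. The block changed no call of a member. With a mean of at least 100 required, 2 of 5 members were higher in CCR8+ cells, in place of 4 of 7. Leaving out 1 library gave between 3 and 6 members higher, and 0 genes called each time. The ID to E protein difference was between 0.12 and 0.65 in those fits, and −1.06 with *Id3* alone, where the library at 0 was left out. The fitted difference of *Msc* depends on the prior count, with 2.91 at a pseudocount of 10, 9.19 at a pseudocount of 0.1, 4.15 after quantile normalization, and 9.94 with edgeR, and is no bound. *Bhlhe40* stayed between 0.16 and 0.56 and *Id2* between 0.21 and 0.58 in 21 alternatives each, and *Id3* between −3.67 and −1.03. *Tcf3* and *Tcf12* each changed sign in 3 of 21 and *Tcf4* in 2 of 20, all of them fits without 1 or 2 libraries. Other scalings moved the median of all genes by −0.07 to 0.00, and leaving out CCR8- replicate 1 moved it by −0.12. Lengths from the longest coding transcript and the fit without CCR8- replicate 1 and CCR8+ replicate 3 were chosen after seeing the data. Levels of 3 reads or fewer limit *Tcf4*, *Msc* and, in CCR8+ replicate 3, *Id3*.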
